A study of Oryctolagus cuniculus with 12 samples.

Results

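Bulk RNA sequencing of rabbit ear was compared between hypertrophic scar that had been injected with 5-fluorouracil (5-Fu) and normal skin (NS), to describe the scar that remained after treatment and the expression found in neither untreated scar (HS) nor NS. The members were the samples labelled as 5-Fu injection and as normal skin, 3 against 3, which makes 6 of the 12 samples of the series. All rabbits were wild type, and the study used females. NS was the ear of rabbits that were neither wounded nor treated. HS and 5-Fu-injected lesions grew from wounds on the ventral side of the ear in which skin and perichondrium had been taken away, and each lesion of the 5-Fu injection group received 0.1 mL holding 120 μg of 5-Fu on days 22, 29 and 36. HS received nothing, and the remaining group of 3 samples received microneedles (MNs) that carried a peptide prodrug of 5-fluorouracil acetic acid on the same days. Tissue of the full thickness of the ear was taken on day 43, 1 week after the last dose. The study assigned 3 rabbits to a group, but the labels do not tie a sample to a rabbit, so that the p-values describe the spread between samples. No vehicle-injected lesions were analysed here, and therefore the wound, the needle and the drug cannot be told apart in a comparison with NS.

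A hypertrophic scar is a raised scar in which activated fibroblasts lay down fibrillar collagen, proteoglycans and matricellular proteins in excess, and in which lysyl oxidases and collagen hydroxylases stabilise the fibrils. Macrophages take part in the clearing and turnover of this matrix through lysosomal cathepsins and metalloproteinases. 5-Fu is a pyrimidine analogue that blocks thymidylate synthase and enters RNA and DNA, and it is injected into scars to restrain fibroblasts. The rabbit ear holds a cartilage plate between 2 layers of skin, so that a full thickness sample also contains cartilage, nerve, vessels and muscle fibres.

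Values are FPKM, the fragments on a gene scaled by its length and by the library size, and fold changes are differences of log2(FPKM + 1), so that a change of a gene near 0 appears smaller than it is. The whole table gave 10521472 to 14043667 reads on genes per sample. Keratinocyte, fibroblast, macrophage, endothelial, Schwann cell and cartilage markers were present in every sample, while the mast cell marker CPA3 was listed at 0 in all 12. The 5-Fu-injected samples were not alike. Replicate 2 carried 13.4% of its reads on 38 collagen genes, against 5.34% and 4.72% in replicates 1 and 3, 3.10% to 5.05% in NS and 18.1% to 22.4% in HS. Replicate 1 stood apart by its lymphocyte and plasma cell genes, as given with those genes. Among the NS samples, replicate 2 had the highest medians of T cell, B cell, granulocyte and interferon genes, and replicate 3 was highest in contractile genes. Because each sample is a mixture of cell types, fewer cells of a type and less RNA per cell cannot be told apart.

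A gene was called a DEG when its limma adjusted p was under 0.05 and its log2 fold change was beyond 1 in either direction, and between 5-Fu injection and NS this held for a single gene. It was PLA2G7 (ENSOCUG00000000763, chromosome 12 from 36055494 to 36075754), which encodes a secreted phospholipase of macrophages that hydrolyses platelet-activating factor. In NS its FPKM was 14.1, 14.1 and 15.4, and after 5-Fu injection it was 53.2, 59.2 and 33.6, with no overlap. In HS the FPKM was 67.6, 71.1 and 67.1, so that the injected samples lay between NS and HS. Against NS the gene rose by a log2 fold change of 1.64 (SE 0.18, limma adjusted p = 0.0266), from a mean of 14.5 ± 0.732 to 48.7 ± 13.4 FPKM (SD, n = 3). The call was lost without NS replicate 1 (limma adjusted p = 0.253), NS replicate 2 (0.0543), 5-Fu injection replicate 2 (0.0622), HS replicate 2 (0.0797) or HS replicate 3 (0.0813), with only the NS and 5-Fu-injected samples in the fit (0.301), and without the trend of the variance on the mean (0.0503). Its fold change stayed between 1.43 and 1.88 over the 18 settings run, whose limma adjusted p ranged from 0.000471 to 0.301. The rise was not particular to 5-Fu injection. In the drug-loaded MNs group PLA2G7 measured 58.6, 50.8 and 49.2 (log2 fold change against NS 1.79, limma adjusted p = 0.011).

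The single DEG was 0.00753% of the 13287 genes tested. At an unadjusted p under 0.05, 1981 genes (14.9%) differed from NS, 1053 of them higher (7.93%) and 928 lower (6.98%) after 5-Fu injection. Without NS replicate 1 these counts were 668 higher (5.03%) and 519 lower (3.91%). The 3 injected samples lay entirely above NS in 1275 genes (9.6%) and entirely below in 1217 (9.16%). Rescaling to the total of reads on genes lowered the median fold change of all genes from 0.01 to -0.19 and turned the counts at an unadjusted p under 0.05 into 376 higher and 2539 lower, so every direction that follows is relative to the deposited scaling. For comparison, HS against NS gave 665 DEGs (5%), 469 higher (3.53%) and 196 lower (1.48%), with groups that did not overlap in 4428 genes (33.3%). After the same rescaling the DEGs of HS were 311 higher and 749 lower. Below, genes other than PLA2G7 are therefore given by their values, and a list is described by the number of its members at an unadjusted p under 0.05 and by its median, without a test of the list.

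Next to PLA2G7, the smallest p-value belonged to TREM2 (ENSOCUG00000007265, chromosome 12 from 30913042 to 30929382, named from its description), the lipid receptor of lipid-handling macrophages. Its FPKM was 1.24, 1.69 and 2.70 in NS, 14.04, 23.98 and 14.9 in HS and 31.1, 17.9 and 9.39 after 5-Fu injection. All injected samples exceeded all NS samples and spread over and beyond the HS range. The log2 fold change against NS was 2.71 (SE 0.36, limma adjusted p = 0.0559), and the adjusted p ran from 0.00855 to 0.318 over the settings, below the threshold in 8 of 18. Of the 24 tested genes of lipid-handling macrophages and lysosomes, 9 were higher than NS and 0 lower at an unadjusted p under 0.05, with a median fold change of 0.48 against 0.01 over all genes. The median of the same list between HS and NS was 0.40. Without 5-Fu injection replicate 1 the median against NS was 0.27 with 6 higher. Cathepsin Z, CTSZ, a lysosomal carboxypeptidase, had an FPKM of 99.9, 127 and 113 in NS, 193, 198 and 189.7 in HS and 271, 224 and 163 after injection (log2 fold change against NS 0.93, limma adjusted p = 0.0989). The lysosomal membrane protein CD63 measured 247, 236 and 252 in NS, 458, 499.5 and 467 in HS and 412, 436 and 373 after injection (log2 fold change 0.73, limma adjusted p = 0.0968). In both genes the injected samples lay above every NS sample. Cathepsin B, CTSB, measured 239, 293 and 245 in NS and 667, 477 and 328 after injection. The lipid droplet coat protein PLIN2 was between NS and HS, at 19.2 to 24.4 in NS, 43.2 to 51.5 in HS and 31.2 to 32.99 after injection. GPNMB, a glycoprotein of lipid-laden macrophages, was uneven, at 488, 92.4 and 57.0 in replicates 1, 2 and 3 against 29.8 to 57.1 in NS.

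**Figure D1:**
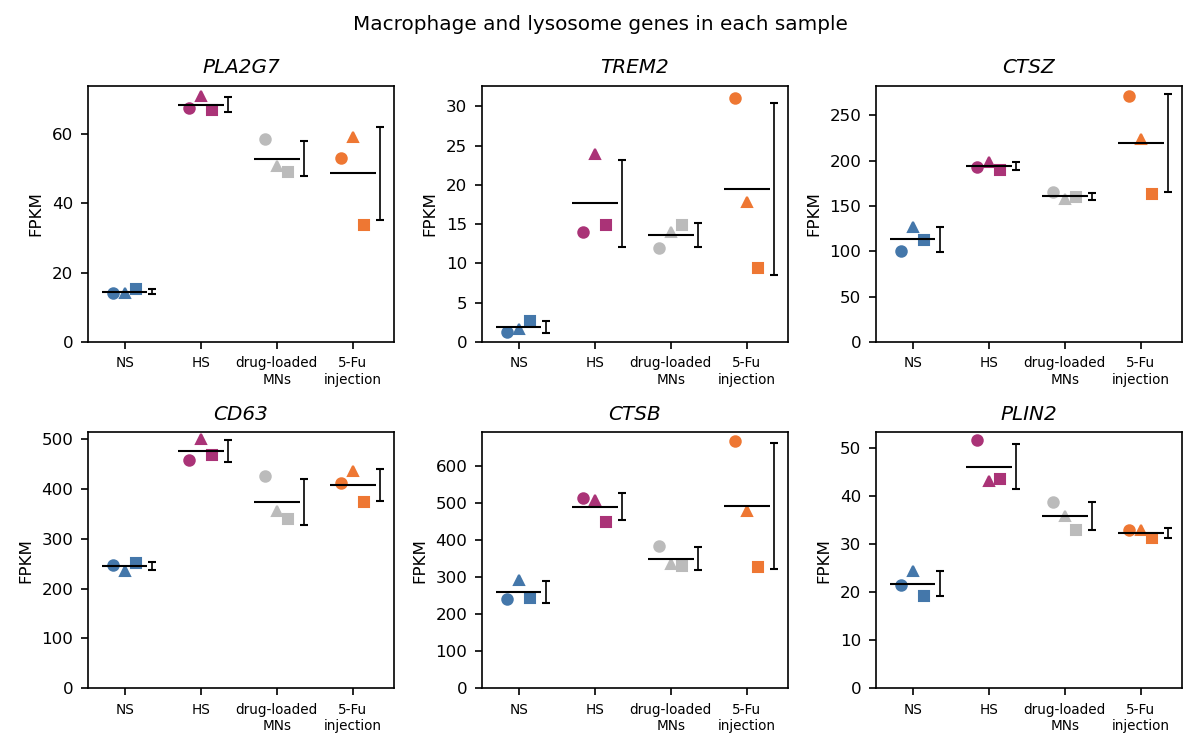
Each panel plots the FPKM of a macrophage or lysosome gene in every sample of the 4 groups (circle, replicate 1; triangle, replicate 2; square, replicate 3), with the group mean as a line and the SD as a bar. PLA2G7 lay between 33.6 and 59.2 after 5-Fu injection and between 14.1 and 15.4 in NS.

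Of the 19 general macrophage genes tested, 3 were higher at an unadjusted p under 0.05 and 0 lower (median 0.62), which became 10 higher when NS replicate 2 was left out and 8 without 5-Fu injection replicate 3, but 1 without NS replicate 1 or 5-Fu injection replicate 1. The median ranged from 0.33 without NS replicate 3 and 0.38 without 5-Fu injection replicate 2 to 1.07 without replicate 3. In 1 of these 19 genes all injected samples lay above all NS samples, against 9.6% of all genes tested. The lipopolysaccharide co-receptor CD14 had an FPKM of 42.6, 116 and 45.3 in NS, 61.8, 89.4 and 83.6 in HS and 151, 149 and 119 after injection, so all injected samples exceeded all NS and HS samples. CD68, a lysosomal glycoprotein of macrophages, was 28.3, 73.4 and 22.6 in NS and 112, 87.7 and 52.3 after injection, and NS replicate 2 overlapped with the injected samples.

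Residual scar matrix was uneven between the injected samples. Of the 10 fibrillar collagen genes tested, 6 were higher than NS at an unadjusted p under 0.05 and 0 lower, and none was a DEG. The median fold change of the list was 1.27 against NS, where HS stood at 2.99, and 0.65 without 5-Fu injection replicate 2. COL1A1 (ENSOCUG00000012881, chromosome 19 from 37474785 to 37489593), which encodes a chain of type I collagen, had an FPKM of 896, 705 and 714 in NS, 12719, 18970 and 15445 in HS and 1053, 9219.9 and 1438 after injection. Replicates 1 and 3 were thus just above the NS range, and replicate 2 lay nearer to HS but below its range. Its log2 fold change against NS was 1.65 (SE 0.64, limma adjusted p = 0.275). COL3A1 (ENSOCUG00000014988, chromosome 7 from 129298064 to 129340978), which encodes type III collagen of early scar, measured 718, 380.3 and 547 in NS and 1283, 4609 and 1717 after injection (log2 fold change 2.03, SE 0.44, limma adjusted p = 0.134), above every NS sample in each injected sample. COL5A1, whose type V collagen starts fibrils, was 57.8 to 100.4 in NS and 143, 593 and 267 after injection. The cartilage collagen COL2A1 varied widely within groups, at 2248, 1012 and 1034 in NS and 4429, 259.6 and 491 after injection.

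Of 26 genes of collagen processing tested, 11 were higher than NS at an unadjusted p under 0.05 and 3 lower, with a median of 0.46 against NS and 1.31 for HS. Without 5-Fu injection replicate 2 the median was 0.24 and 8 were higher, and without NS replicate 3, 7 were higher. Without 5-Fu injection replicate 1 the median was 0.76 and 16 were higher, and without NS replicate 1, 1 was lower. The prolyl hydroxylase subunit P4HA3 had an FPKM of 8.90, 5.32 and 5.51 in NS, 68.2, 80.1 and 66.8 in HS and 15.8, 42.2 and 25.2 after injection (log2 fold change against NS 1.85, limma adjusted p = 0.0769). PCOLCE, which enhances the cleavage of procollagen, measured 62.6 to 108 in NS and 129, 410.3 and 222 after injection, and the lysyl oxidase relative LOXL1 measured 47.5 to 77.7 and 102, 224 and 114. All 3 genes were above NS in each injected sample. LOX itself, which cross-links collagen and elastin, was lower, as described with the genes outside both ranges. PCOLCE2 measured 303, 195 and 169.6 in NS and 218, 42.3 and 103 after injection, and P3H2, a prolyl 3-hydroxylase, 40.7 to 57.9 and 23.6 to 33.2.

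Among the small leucine-rich proteoglycans, which bind and space collagen fibrils, 6 of 11 were higher than NS at an unadjusted p under 0.05 and 0 lower. The median was 0.97, against 1.62 for HS. Lumican, LUM, had an FPKM of 192, 118 and 139 in NS, 3962, 3257 and 2775 in HS and 315, 2101 and 660.1 after injection (log2 fold change against NS 2.36, SE 0.53, limma adjusted p = 0.139). Epiphycan, EPYC, a proteoglycan best known from cartilage, was higher by 3.10 (SE 0.71, limma adjusted p = 0.139), from 1.51, 2.20 and 4.77 in NS to 26.4, 69.1 and 14.3, with HS at 9.85, 86.0 and 46.9. Its injected samples lay within the span of HS. Biglycan, BGN, was 440.4 to 676 in NS, 2213 to 2536 in HS and 1204, 1534 and 791 after injection, while fibromodulin, FMOD, was 113 to 149 in NS and 76.9 to 110.2 after injection.

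Of 21 matrix proteases and inhibitors tested, 6 were higher and 0 lower at an unadjusted p under 0.05 (median 0.79, HS 1.15). The number higher was 3 without NS replicate 3 and 11 without 5-Fu injection replicate 1, at medians of 0.53 and 1.18. Gelatinase A, MMP2, measured 148, 95.5 and 108 in NS, 1020.1, 1118 and 1074 in HS and 322, 579 and 245 after injection (log2 fold change against NS 1.63, limma adjusted p = 0.103), and all injected samples lay between the NS and the HS range. The macrophage elastase MMP12 was 2.76, 5.78 and 1.02 in NS, 3.74, 19.2 and 11.8 in HS and 104, 13.5 and 11.2 after injection. Its log2 fold change of 2.83 (SE 0.87, limma adjusted p = 0.217) was 1.84 without replicate 1, and all injected samples lay above NS. Matricellular proteins (3 of 20 higher, median 0.16, which turned to -0.05 after rescaling to total reads and was 0.05 with 1 higher without 5-Fu injection replicate 2) and elastic fibre genes (2 of 15 higher, median -0.03, which turned to 0.20 without 5-Fu injection replicate 3) had medians near that of all genes, where HS stood at 1.16 and 1.55. The 2 elastic fibre genes, of which 0 passed without 5-Fu injection replicate 2, were MFAP4 (282 to 426 in NS, 413, 1359.7 and 575 after injection) and EMILIN1 (41.3 to 44.2 and 51.9, 134 and 66.6). Of the 11 contractile genes of myofibroblasts 0 passed an unadjusted p under 0.05 by limma, and their median of -0.17 turned to 0.43 with 4 higher without NS replicate 3, and to 0.06 without 5-Fu injection replicate 2. Without NS replicate 2 it was -0.79 with 2 lower.

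**Figure D2:**
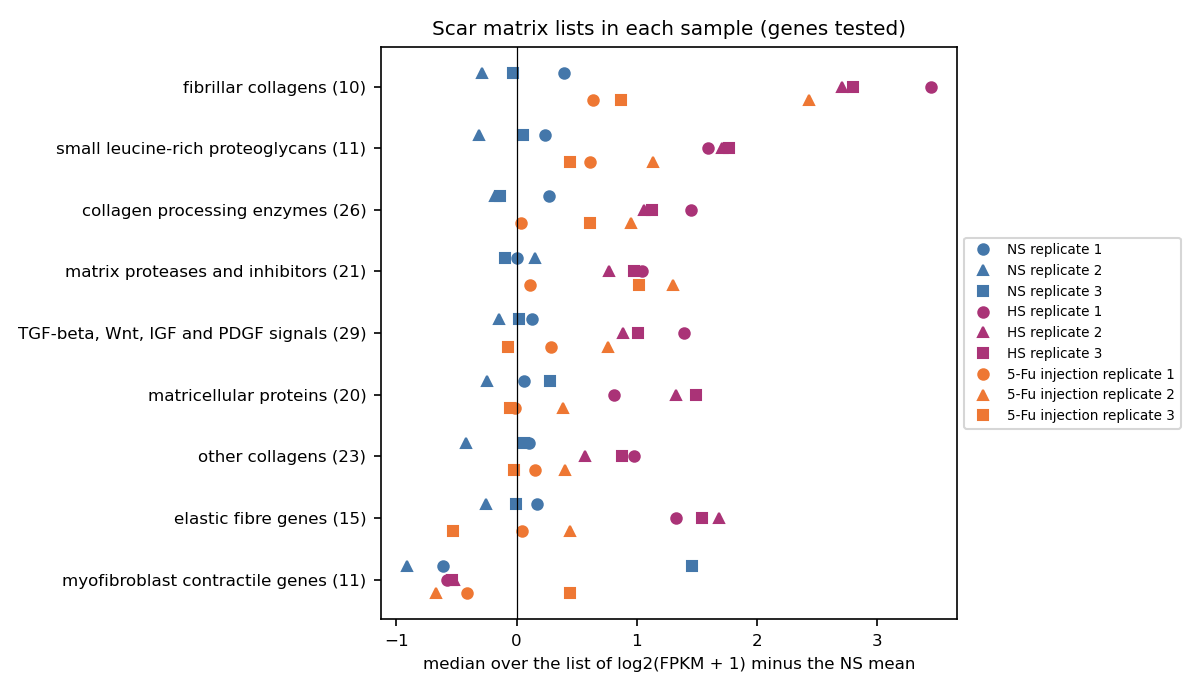
For 9 lists of scar matrix genes, each point is a sample and its x value is the median over the list of log2(FPKM + 1) minus the mean of NS, with the number of genes tested in parentheses. For fibrillar collagens 5-Fu injection replicate 2 lies at 2.43, replicates 1 and 3 at 0.64 and 0.87, and the HS samples between 2.71 and 3.45.

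Among growth factor and Wnt genes, 7 of 29 were higher than NS and 5 lower at an unadjusted p under 0.05 (median 0.28, HS 1.14). Without NS replicate 1, 0 were lower, and without 5-Fu injection replicate 2, 4 were higher at a median of 0.14. The median was 0.49 without 5-Fu injection replicate 1, and 0.45 with 10 higher without 5-Fu injection replicate 3. SFRP2 (ENSOCUG00000016660, chromosome 15 from 10007158 to 10014838), a secreted modulator of Wnt signals made by dermal fibroblasts, had an FPKM of 47.9, 48.7 and 20.2 in NS, 375, 1829 and 1360 in HS and 356, 469 and 223 after injection. Its log2 fold change against NS was 3.17 (SE 0.54, limma adjusted p = 0.0769), and all 3 injected samples lay above NS. The growth factor IGF1 was 4.23, 6.84 and 3.38 in NS, 72.5, 54.0 and 68.0 in HS and 8.35, 23.6 and 8.21 after injection. Its binding protein IGFBP4 was 218 to 274, 1271 to 1693 and 413 to 784 in the same order, between the NS and the HS range. On the lower side, the BMP antagonist GREM1 measured 293, 106 and 100.01 in NS, 40.8, 27.5 and 47.6 in HS and 48.1, 7.67 and 74.6 after injection (log2 fold change -2.21, or -1.27 without replicate 2 of the injected samples, limma adjusted p = 0.246). The Wnt inhibitor WIF1 measured 74.2, 45.1 and 43.8 in NS and 29.97, 15.1 and 6.93 after injection.

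The 10 genes with the largest increase in HS over NS give the residue gene by gene, as a description, since they were chosen on the same NS samples. After 5-Fu injection the 10 fold changes against NS ran from 1.45 (MMP13 and THBS2) to 3.17 (SFRP2), where those of HS ran from 4.01 to 5.12, and 0 of the 10 were DEGs after injection. Without replicate 2 the fold change was 0.43 for VCAN, 0.68 for COL1A1, 0.84 for THBS2, 0.87 for ADAM12, 1.03 for PRSS35 and 1.28 for COL1A2. ADAM12, a metalloprotease of activated fibroblasts, had an FPKM of 0.567, 0.311 and 1.57 in NS, 79.04, 49.9 and 53.9 in HS and 1.86, 17.6 and 2.56 after injection. The large proteoglycan versican, VCAN, was 3.02, 13.4 and 3.79 in NS, 244, 92.0 and 113 in HS and 3.45, 89.2 and 16.4 after injection. For both genes replicate 2 was the highest of the injected samples and lay well above NS. The matricellular protein THBS2 was 36.6, 28.8 and 17.3 in NS, 1180, 404 and 416 in HS and 43.6, 173 and 52.6 after injection, and the collagenase MMP13 was 0.745 to 1.49, 18.5 to 41.7 and 2.59, 7.58 and 4.10. The remaining genes were PRSS35 (1.74, 13.1 and 3.67 after injection, 0.433 to 1.17 in NS), LRRC17 (5.83, 23.96 and 8.05 and 1.65 to 2.61) and COL1A2 (1486, 9541 and 2329.7 and 659 to 940.1). In each of the 3, every injected sample exceeded every NS sample and replicate 2 was the highest.

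The 10 genes with the largest decrease in HS were followed in the same way. ANGPTL7, a secreted angiopoietin-like protein, had an FPKM of 1429.9, 1125 and 1157 in NS, 76.5, 107 and 227 in HS and 552, 296 and 616 after injection, so the injected samples lay between the NS and HS ranges (log2 fold change against NS -1.40, SE 0.45, limma adjusted p = 0.227). The small heat shock protein CRYAB was 564, 360.5 and 549.9 in NS, 32.9, 65.3 and 70.2 in HS and 128, 37.8 and 354 after injection (log2 fold change -1.998, or -1.18 without replicate 2, limma adjusted p = 0.225). PPP1R1B, an inhibitor of protein phosphatase 1, was 122, 49.4 and 117 in NS and 39.4, 2.00 and 81.1 after injection. Replicate 2 was again the sample nearest to HS in all 3. The glycogen-targeting subunit PPP1R3C was 25.5, 1.503 and 31.02 after injection against 41.2 to 82.0 in NS. For C17orf67 the values were 21.9, 3.24 and 20.2 against 49.8 to 90.2. The Wnt receptor FZD9 was 34.4, 1.56 and 26.6 against 30.5 to 62.3, CMTM5 was 29.0, 4.75 and 31.98 against 46.5 to 85.6, and the actin-severing protein SCIN was 26.5, 4.12 and 29.1 against 34.8 to 65.0. ITIH6 was 28.6, 1.19 and 12.1 against 20.1 to 35.8. In these 6 genes replicate 2 was the lowest of the injected samples, without which the fold changes lay between -1.51 for C17orf67 and -0.54 for ITIH6, and for FZD9 and ITIH6 replicate 1 lay within the NS range. The chemokine CCL19 was uneven in NS itself, at 67.2, 192 and 10.3, and was 66.1, 17.9 and 49.7 after injection, with a fold change of -0.41 that turned positive without NS replicate 2 (0.52) or 5-Fu injection replicate 2 (0.14). Cartilage genes moved with some of these samples: the median of the 17 cartilage genes was 0.45, -2.12 and -0.47 relative to NS in injected replicates 1, 2 and 3, and 0.52, -0.44 and -0.14 in NS, and their part in these differences was not tested.

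**Figure D3:**
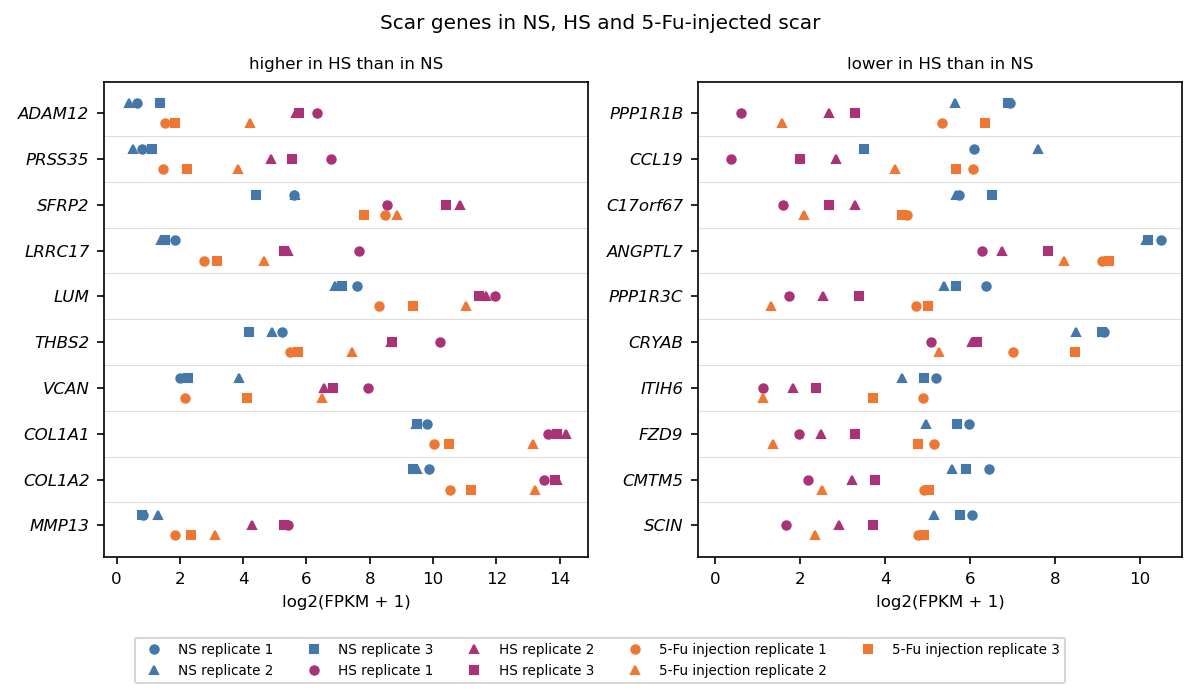
Each row is a gene and each point a sample on the log2(FPKM + 1) scale, with the 10 genes most increased in HS on the left and the 10 most decreased on the right. 5-Fu injection replicate 2 (triangle) lies nearest to HS in most rows, and SFRP2 is between 7.81 and 8.88 in all 3 injected samples against 4.41 to 5.63 in NS.

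Beyond the scar matrix, the largest fold changes above NS belonged to the plasma cell genes IGHM and JCHAIN. This ranking covers genes with a symbol, an unadjusted p under 0.05 and no overlap. IGHM, the constant region of the IgM heavy chain, had an FPKM of 5.37, 29.0 and 11.8 in NS, 111, 160.3 and 153 in HS and 4354, 139 and 179 after injection (log2 fold change against NS 5.15, SE 1.18, limma adjusted p = 0.139). Without 5-Fu injection replicate 1, IGHM was higher than NS by a log2 fold change of 3.56. It belongs to a multigene family whose reads the counting may split. The joining chain JCHAIN was 3.95, 26.8 and 8.39 in NS, 37.9, 85.7 and 88.0 in HS and 1057, 60.5 and 73.2 after injection, and the plasma cell chaperone MZB1 was 0.590, 1.86 and 0.218 in NS, 2.13, 2.25 and 4.48 in HS and 50.1, 3.85 and 2.96 after injection. In all 3, replicate 1 was far above the other injected samples, which lay near the HS values. Of the 11 tested B and plasma cell genes 3 were higher than NS at an unadjusted p under 0.05, with a median of 1.03 that was 0.36 without replicate 1 and 1.61, with 6 higher, without replicate 2. The B cell marker MS4A1 was low throughout, highest in injected replicate 1 at 3.62 FPKM, and at or below 0.358 in NS. T and NK cell genes had a median of 1.11 against NS, with 2 of 17 higher (11.8%, against 7.93% of all genes), and a median of 0.36 without replicate 1. Without NS replicate 2, 10 were higher, as were 8 without 5-Fu injection replicate 2 and 7 without replicate 3, but 1 without NS replicate 1, NS replicate 3 or 5-Fu injection replicate 1. CD3E, a subunit of the T cell receptor complex, was 41.6, 5.72 and 4.62 after injection against 4.23, 9.60 and 1.41 in NS. HS lay on the other side, at a median of -0.64 for the list. Genes of dendritic cells and antigen presentation had a median of 0.30 (2 of 14 higher, 14.3%, against 7.93% of all genes). This median turned to -0.02 without 5-Fu injection replicate 1 and to -0.01 without NS replicate 3, and was 0.67 with 4 higher without NS replicate 2. MT4, a metallothionein of stratified epithelium with close relatives, was 459, 247 and 133 in NS, 1214, 211 and 468 in HS and 2195, 554 and 3291 after injection (log2 fold change 2.68, limma adjusted p = 0.225), with overlap between the injected and the HS samples.

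Several of the 10 genes furthest below NS were low in HS as well. C1QL1, a secreted protein of the C1q family, had an FPKM of 53.2, 26.5 and 32.8 in NS, 2.73, 5.35 and 5.59 in HS and 0.972, 4.30 and 6.83 after injection (log2 fold change against NS -3.09, SE 0.54, limma adjusted p = 0.0835). The chemokine CCL20, which draws CCR6-bearing lymphocytes and dendritic cells, was 37.02, 20.3 and 21.1 in NS, 3.18, 2.42 and 5.61 in HS and 4.40, 4.67 and 5.12 after injection (log2 fold change -2.19, limma adjusted p = 0.103). Both genes were in the injected samples as low as in HS. The sulfatase ARSI was 31.9, 13.1 and 39.4 in NS and 11.5, 6.77 and 1.95 after injection, and GLNB2 was 60.8, 17.6 and 7.69 in NS and 6.02, 5.65 and 1.64 after injection. PSORS1C2, which lies beside the corneodesmosin gene, was 102, 28.9 and 55.1 in NS, 10.7, 54.9 and 79.9 in HS and 19.8, 11.4 and 5.60 after injection, and the injected samples overlapped with HS. PLEKHB2 was listed at 0 in injected replicates 1 and 3 and in a sample of the drug-loaded MNs group, but at 17.7 in injected replicate 2, at 19.2 to 23.7 in NS and at 29.8, 17.7 and 19.4 in HS. A value of 0 beside such levels may be a failed estimate, and no fold change is given.

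Of the 15 Schwann cell and nerve genes tested, 9 were lower than NS at an unadjusted p under 0.05 and 0 higher, with a median of -0.82 against NS and -1.32 for HS. With a single NS or injected sample left out, 6 to 10 were lower. The transcription factor SOX10, which defines the lineage, had an FPKM of 60.1, 28.9 and 30.1 in NS, 10.4, 12.4 and 8.36 in HS and 11.2, 11.7 and 23.8 after injection (log2 fold change -1.29, limma adjusted p = 0.17). The sodium channel SCN7A was 5.88 to 11.2, 3.29 to 4.10 and 3.47 to 3.88, as low after injection as in HS. Of the 17 genes of cholesterol synthesis, 11 were lower and 0 higher, at a median of -0.77 against NS and -0.68 for HS, and 7 to 14 were lower with a single NS or injected sample left out. The lanosterol demethylase CYP51A1 was 49.6, 43.8 and 30.6 in NS, 14.8, 22.3 and 33.5 in HS and 15.6, 15.7 and 18.8 after injection (log2 fold change -1.23, limma adjusted p = 0.139). The synthase HMGCS1 was 38.8 to 52.98 in NS and 31.3, 16.5 and 18.1 after injection.

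Expression outside both NS and HS was tested as the difference of the 5-Fu-injected samples from the mean of both groups. A gene between NS and HS can also differ from that mean, as PLA2G7 did (limma unadjusted p = 0.00467). The difference alone had an unadjusted p under 0.05 in 2508 genes (18.9%), whether or not they lay outside both. No gene passed a limma adjusted p under 0.05 with a log2 fold change above 1 in the same direction against each group (0 of 13287, 0%). With limma voom on the reads, 0 were likewise called. Leaving out a single sample gave 12 genes without 5-Fu injection replicate 2, 8 without NS replicate 2, 3 without NS replicate 3 and 0 without any other NS, HS or injected sample. The 3 injected samples lay above all 6 NS and HS samples in 472 genes (3.55%) and below all 6 in 473 (3.56%). With both fold changes beyond 1, these were 24 genes above (0.181%) and 6 below (0.0452%). The smallest limma adjusted p was 0.0625, shared by ABTB1 and an unnamed gene, ENSOCUG00000031558. Both were picked after their values were seen. ABTB1, a protein with ankyrin repeats and BTB domains, had an FPKM of 34.7, 38.2 and 30.9 after injection against 12.6 to 22.2 in NS and HS.

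Of the genes above both ranges, the 10 with a symbol that were furthest from NS and HS are described. HCST (ENSOCUG00000006285, scaffold GL018786 from 689243 to 690954), the adaptor DAP10 of NK and T cell receptors, had an FPKM of 188, 60.9 and 64.4 after injection, 15.4, 57.0 and 7.63 in NS and 15.6, 15.1 and 15.2 in HS (log2 fold change 2.18 against NS and 2.49 against HS, limma adjusted p against both 0.14). NS replicate 2 came close to the lowest injected sample. C1orf162 was 97.3, 137 and 156 after injection, 21.1, 81.3 and 19.9 in NS and 22.4, 36.7 and 39.4 in HS. FGF23, the hormone that lowers blood phosphate, was 14.3, 15.9 and 52.8 after injection against 3.24 to 9.01 in NS and 3.90 to 7.31 in HS. Replicate 3 was the highest, and in the drug-loaded MNs group the values were 12.0, 2.61 and 1.95. TSTD1, a small thiosulfate sulfurtransferase, was 46.6, 35.3 and 28.5 against 13.3 to 22.9 in NS and 10.8 to 12.4 in HS (limma adjusted p against both 0.103). The epidermal protease KLK8 was 52.6, 18.1 and 26.2 after injection against 5.16 to 13.5 in NS and 9.17 to 16.7 in HS, and it was as high in the drug-loaded MNs group, at 39.2, 30.9 and 58.2. The mitochondrial ribosomal protein MRPL17 was 137, 77.5 and 234 against 55.0 to 62.4 and 64.0 to 71.6, and the tubulin TUBE1 was 30.8, 9.96 and 31.4 against 8.49 to 9.86 and 6.30 to 8.44. In both, replicate 2 lay close to the upper end of NS and HS, and the drug-loaded MNs samples measured 189.96, 60.4 and 59.3 for MRPL17 and 20.3, 9.26 and 7.62 for TUBE1. In TRAF3IP3, TRBV30 and SLC25A47 replicate 1 was the highest injected sample. TRAF3IP3, an adaptor of lymphocytes, was 22.5, 5.89 and 6.23 after injection against 3.44 to 5.48 in NS and 2.98 to 4.52 in HS. The T cell receptor segment TRBV30, of a multigene family, was 9.63, 0.675 and 0.766 against 0 to 0.197 in NS and 0 to 0.407 in HS. Apart from injected replicate 1, these values are below 1 FPKM and rest on few reads. The mitochondrial carrier SLC25A47 was 9.27, 2.03 and 3.20 against 1.18 to 1.58 in NS and 0.596 to 1.98 in HS. In SLC25A47 and TRAF3IP3, injected replicate 2 lay close to the upper end of NS and HS.

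Of the genes below both ranges, the 10 with a symbol that were furthest from NS and HS are described, PLEKHB2 among them, although its injected replicate 2 equalled the lowest HS sample to 3 digits and its other injected values were listed at 0. NFIB (ENSOCUG00000004249, chromosome 1 from 39643816 to 39894951), a transcription factor of skin and hair follicle, had an FPKM of 4.80, 3.22 and 3.44 after injection, 9.05, 8.52 and 7.30 in NS and 8.01, 9.31 and 9.22 in HS (log2 fold change -0.96 against NS and -1.04 against HS, limma adjusted p against both 0.103). The 3 injected samples were close to each other. LOX (ENSOCUG00000003313, chromosome 3 from 6330229 to 6342271) was 80.9, 88.4 and 89.3 after injection, 267, 182 and 186 in NS and 128, 216 and 260.2 in HS (log2 fold change -1.26 against NS, limma adjusted p against both 0.14). It was as low in replicate 2, where collagen was high, as in the others, and was 195, 134 and 82.7 in the drug-loaded MNs group. The Hedgehog receptor PTCH1 was 4.604, 4.58 and 2.67 against 8.58 to 12.9 in NS and 6.43 to 10.9 in HS. CREB3L2, which drives genes of collagen secretion, was 11.1, 11.2 and 7.17 against 14.8 to 26.9 and 16.6 to 28.4. The secreted protein DIPK2A was 6.03, 6.99 and 5.39 against 10.9 to 22.7 and 11.5 to 12.3 (limma adjusted p against both 0.127). SOGA1, ENC1, RNF24 and UBXN2A completed these 10, with values after injection of 3.53 to 7.70, 4.83 to 7.46, 2.11 to 3.99 and 1.91 to 3.61 against lowest values in NS and HS of 9.45, 9.72, 4.50 and 5.13.

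**Figure D4:**
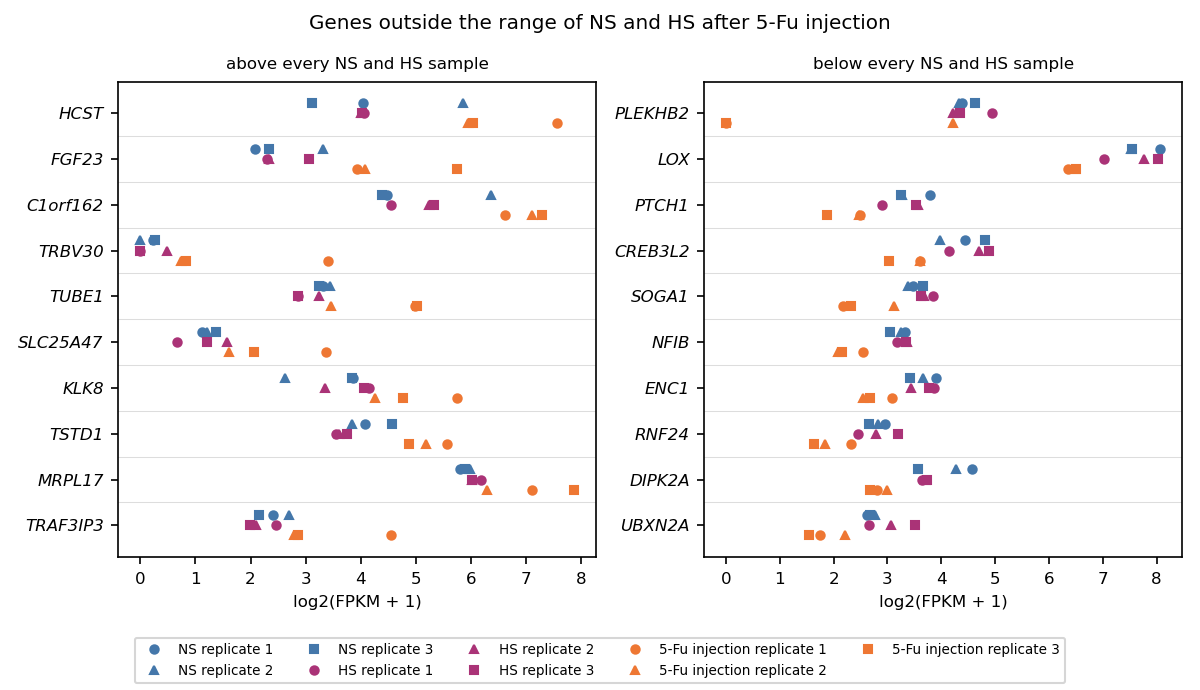
Each row is a gene whose 3 injected samples lie outside the range of the 6 NS and HS samples, plotted on the log2(FPKM + 1) scale, above on the left and below on the right. The distance to the nearest NS or HS sample is small for HCST, where NS replicate 2 is at 57.0 FPKM and injected replicate 2 at 60.9, and wider for NFIB, where the highest injected sample is at 4.80 and the lowest other sample at 7.30.

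Several ribosomal protein and mitochondrial transcripts also lay above both ranges. Of the 73 cytosolic ribosomal protein genes tested, 25 were higher than NS and 0 lower at an unadjusted p under 0.05, and 26 lay above all NS and HS samples, against 3.55% of all genes. The list median was 0.51 against NS and 0.64 against HS, highest in replicate 1 (0.94, 0.17 and 0.41 in replicates 1, 2 and 3), and the number higher than NS ranged from 5, without 5-Fu injection replicate 1 and without NS replicate 1 or 2, to 48 without 5-Fu injection replicate 2. The median was 0.28 without 5-Fu injection replicate 1, 0.28 after rescaling to total reads and 0.09 after quantile normalization. In replicates 1, 2 and 3 of the drug-loaded MNs group the list stood at -0.12, 0.10 and 0.62 relative to NS. Replicate 3 of that group was thus above injected replicates 2 and 3. RPS21 was 1162, 584 and 665 after injection, 339 to 479.7 in NS and 399.99 to 473 in HS, although ribosomal genes have pseudogenes that can share their reads. Transcripts of the mitochondrial genome, which encode subunits of oxidative phosphorylation, had 3 of 13 members higher than NS (median 0.60, HS -0.30). The count was 0 without NS replicate 1, NS replicate 2 or 5-Fu injection replicate 3 and 11 without 5-Fu injection replicate 1, and the median was 0.03 after quantile normalization. COX3 was 5132, 6989 and 8980.1 against 3426 to 5108 in NS and 3139 to 3607 in HS. All 37 genes of the mitochondrial genome took 5.50%, 7.62% and 10.7% of the reads in injected replicates 1, 2 and 3, against 4.73% to 6.66% in NS and 3.20% to 3.83% in HS. Nuclear genes of oxidative phosphorylation had 8 of 60 higher (13.3%, against 7.93% of all genes) and a median of 0.23. The median was 0.06 with 1 higher without replicate 3, while 2 and 3 were higher without NS replicates 1 and 2 and 15 without 5-Fu injection replicate 2. It was 0.07 after quantile normalization and 0.0018 after rescaling to total reads.

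Gene length moved with these differences. Over 8 groups of genes by length, the median fold change between 5-Fu injection and NS went from 0.13 in the shortest genes (42 to 604 bases) to -0.11 in the longest (4149 to 26518 bases), while HS went the other way, from -0.12 to 0.045. In injected replicate 3 the medians relative to NS ran from 0.25 to -0.17, in replicate 1 from 0.08 to -0.07 and in replicate 2 from 0.04 to -0.08. The genes above both ranges had a median length of 1255 bases and those below 2798 bases, against 1864 bases for all genes tested, and 676 bases for the ribosomal protein genes. The part of length in these differences was not tested.

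**Figure D5:**
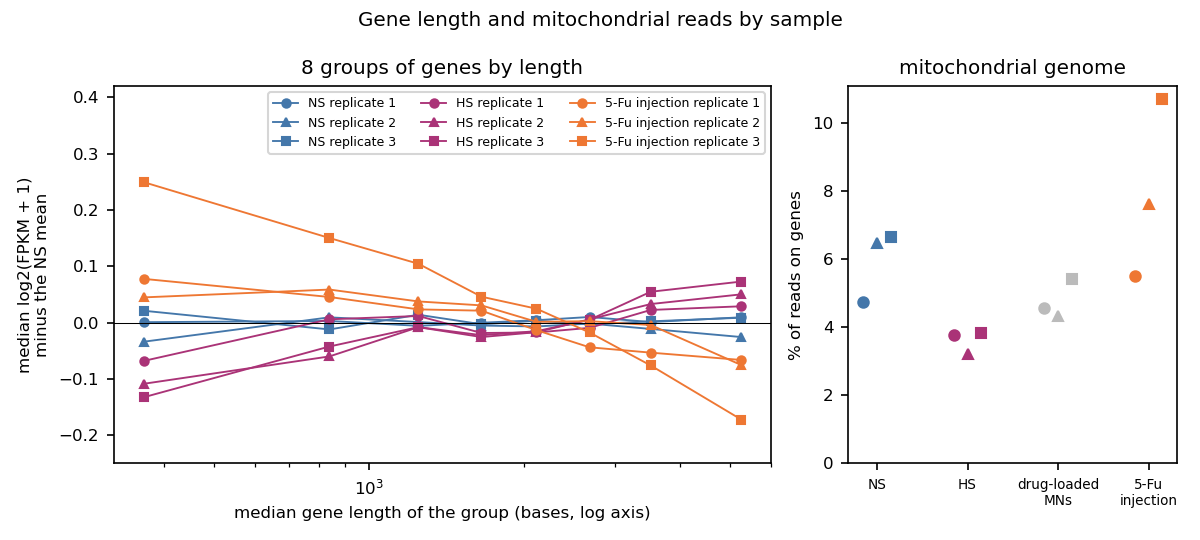
The left panel plots, for 8 groups of genes by length (x axis, median length in bases, log axis), the median of log2(FPKM + 1) minus the NS mean in each NS, HS and 5-Fu-injected sample. The right panel plots the share of reads on the mitochondrial genome in each sample of the 4 groups, highest in 5-Fu injection replicate 3 at 10.7%.

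Some endothelial genes were higher. Of the 17 endothelial genes, 6 were higher than NS and 0 lower at an unadjusted p under 0.05, and 4 lay above all NS and HS samples (median 0.20). Over all genes tested, 7.93% were higher and 6.98% lower at this threshold, and 3.55% lay above both ranges. Without NS replicate 1, 3 were higher, and the median was 0.01 after rescaling to total reads. The junction protein PECAM1 had an FPKM of 105, 103 and 132 after injection, 78.95, 81.0 and 80.7 in NS and 89.3, 66.9 and 76.0 in HS (log2 fold change 0.48, limma adjusted p = 0.215). The diaphragm protein PLVAP was 375, 343 and 510.2 against 264 to 296 in NS, and the receptor TIE1 was 52.2, 29.8 and 47.5 against 26.1 to 28.1. VWF, by contrast, was 169 to 211 after injection and 104 to 183 in NS.

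Lists tied to the action of 5-Fu were read in the same samples of day 43. Over all genes tested, 7.93% were higher than NS and 6.98% lower at an unadjusted p under 0.05. Of 16 fluoropyrimidine targets and metabolic enzymes, 2 were higher than NS (12.5%, near that share) and 0 lower (median 0.30). There were 6 higher without 5-Fu injection replicate 1, and the median was 0.08 after rescaling to total reads. Uridine phosphorylase UPP1, which converts 5-Fu to its nucleoside, was above both ranges, at 15.2, 10.9 and 15.7 FPKM after injection, 7.31, 7.26 and 8.22 in NS and 6.96, 5.48 and 5.97 in HS (log2 fold change against NS 0.78, limma adjusted p = 0.134). In the drug-loaded MNs group it was 6.79, 5.51 and 7.11. Thymidine kinase TK1 was 6.30, 13.9 and 5.89 in NS, 14.4, 15.1 and 16.2 in HS and 12.9, 20.03 and 18.01 after injection. The target enzyme itself, thymidylate synthase TYMS, overlapped, at 11.0, 12.1 and 5.48 in NS and 9.09, 14.5 and 14.6 after injection. Cell cycle genes were higher in 11 of 29 cases and lower in 0, at a median of 0.60 against NS and 0.66 for HS, with 4 to 17 higher when a single sample was left out. The ubiquitin ligase partner UBE2C was 11.0, 22.6 and 9.40 in NS and 22.3, 40.3 and 46.0 after injection, and cyclin B2, CCNB2, was 4.81, 6.40 and 6.18 and 7.73, 21.1 and 19.04, with replicate 1 the lowest of the injected samples. Of 20 p53 targets 2 were higher (10%) and 1 lower (5%), near the shares of all genes. Their median of 0.13 turned to -0.04 after rescaling to total reads and to -0.02 without 5-Fu injection replicate 3. The number higher was 4 without NS replicate 2 or 5-Fu injection replicate 1 and 1 without NS replicate 3, and the number lower was 4 without 5-Fu injection replicate 3 and 0 without NS replicate 1 or 2. The growth arrest gene GADD45A was 40.8 to 52.2 in NS, 57.7 to 102 in HS and 77.3 to 93.4 after injection, and the apoptosis gene BBC3 was above both ranges, at 9.03, 9.73 and 6.18 against 2.95 to 6.16 in NS and HS. CDKN1A, the main cell cycle inhibitor downstream of p53, overlapped, at 58.8, 51.5 and 34.9 in NS and 63.2, 41.7 and 76.1 after injection.

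Epidermal lists had medians below that of all genes, with few members past the threshold. Of 13 keratin genes tested, 1 was higher and 1 lower at an unadjusted p under 0.05 (median -0.14, HS -0.78). The median was -0.52 without NS replicate 2, -0.46 without 5-Fu injection replicate 1, with 2 higher and 4 lower, and -0.03 without replicate 2. The gene on the higher side was KRT1, the keratin of differentiating layers, at 2486, 1164 and 1309 FPKM after injection, 833, 742 and 822 in NS and 817, 422 and 483 in HS. The values in the drug-loaded MNs group, 1521, 1258 and 4053, were above NS as well. The gene on the lower side was KRT2, of the upper epidermis, at 1441, 801 and 431 against 1937, 971 and 2683 in NS and 395, 499 and 444 in HS. The basal keratin KRT5 was 375, 445 and 888 after injection, 533 to 611 in NS and 207 to 243 in HS. Wound keratins were uneven, as KRT6A was 3.98, 108 and 156 after injection and 37.5, 65.5 and 13.1 in NS. Cornified envelope genes had a median of -0.09, which turned positive in 4 settings with a single sample left out, and the transglutaminase TGM5 was 7.81, 1.93 and 3.33 against 8.19 to 8.44 in NS and 1.41 to 2.28 in HS. The median was -0.27 for 13 desmosome and junction genes, at 0.18, -0.32 and -0.61 in injected replicates 1, 2 and 3, and it turned to 0.07 without replicate 3. It was -0.23 for 16 ceramide and lipid barrier genes, at 0.27, -0.50 and -0.73. Of these genes, 1 was higher and 0 lower at an unadjusted p under 0.05, and 5 were lower without 5-Fu injection replicate 1. Hair follicle and sebaceous gland genes had 3 of 19 lower and a median of -0.31, which was -0.03 without NS replicate 1 and -0.83 without NS replicate 2. Among the 8 melanocyte genes, MLANA was the 1 that passed an unadjusted p under 0.05, at 21.4, 11.2 and 28.6 against 5.58, 7.84 and 4.69 in NS.

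Interferon genes rested on single NS samples. Of 29 tested, 2 were lower than NS and 0 higher at an unadjusted p under 0.05, at a median of -0.82 against NS and -1.53 for HS. Per sample the median was 0.24, 1.49 and -1.67 in NS and -0.32, -0.80 and -1.17 after injection. Without NS replicate 2 the median difference was -0.14 with 0 lower, 0 were lower without 5-Fu injection replicate 3, and without NS replicate 3 the median was -1.56 with 25 genes lower. Granulocyte genes likewise gave a median of 0.72 that turned to -0.07 without NS replicate 3, and 0 of 12 passed an unadjusted p under 0.05 by limma. Without NS replicate 2, 7 were higher at a median of 1.56. Fibroblast marker genes, in contrast, were higher in 6 of 13 cases and lower in 0, with a median of 0.57 against 1.03 for HS. They share genes with the matrix lists, such as COL1A1, COL1A2 and LUM, which lay above NS in each injected sample. The fibroblast markers PDGFRA and DCN overlapped with NS. PDGFRA was 17.6, 33.6 and 9.19 after injection against 9.99 to 13.7 in NS. DCN was 814, 1163 and 486 against 463 to 618. Nonfibrillar collagens were split, with 4 of 23 higher and 2 lower, and 2 to 7 higher and 0 to 3 lower with a single NS or injected sample left out. Ribosome biogenesis genes, which serve the RNA that 5-Fu enters, were higher in 2 of 30 cases (6.67%) and lower in 1 (3.33%). Genes of the secretory pathway and unfolded protein response were higher in 2 and lower in 2 of 26 (7.69% each). Over all genes tested, 7.93% were higher and 6.98% lower. Without 5-Fu injection replicate 1, 6 and 7 genes of these lists were higher, and without replicate 2, 6 of the secretory list were lower.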

How the data were processed

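The deposited table holds FPKM values per gene for 12 samples, made by the authors from poly-A RNA libraries after cleaning of the reads. The aligner, the genome build and the annotation are not given in the sources used here, so coordinates are those listed in the table. Multiplied by gene length, the FPKM values fell on whole multiples of 1 read (tolerance 0.1), which gave the reads per sample and a library size that was not the plain read total. Of 29587 genes, 13287 passed a filter (FPKM averaged over all 12 samples not below 1) and were tested on log2(FPKM + 1) with limma 3.58.1 in R 4.3.3, as a fit of 4 group means with a variance trend and Benjamini-Hochberg adjustment. The authors used a count model, which was not run here. Genes were named by symbol, and 189 by the protein description in the table.

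Members and the 43 gene lists were chosen with earlier results of these data known. The genes described were every DEG, the 10 furthest above and below NS among those with a symbol, an unadjusted p under 0.05 and no overlap, the 10 furthest on each side outside both NS and HS, the 10 most changed on each side between HS and NS, and list members chosen by p-value or as defining genes. Alternatives were another pseudocount (0.1), no filter or one at an average of 5 FPKM, quantile normalization, rescaling to total reads, fewer groups in the fit, no trend, voom on the reads, a replicate block and each NS, HS and 5-Fu injection replicate left out. No single sample of the drug-loaded MNs group was left out. The fit was also run on simulated data, from which no result is reported here. Counting error and the number of samples limit the precision, most for genes near 1 FPKM. A few genes are not reported here.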

Additional observations from a re-analysis of the deposited data

How the results depend on the processing

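The single DEG of 5-Fu injection against NS became 2 with a pseudocount of 0.1 and with no filter, 3 with a filter at 5 FPKM and with quantile normalization, 4 after rescaling to total reads, and 0 with only the compared groups in the fit and with no trend, while voom on the reads gave 1. Leaving out a single NS, HS or injected sample gave 0 to 20 DEGs, with 20 without 5-Fu injection replicate 1, 16 without NS replicate 3 and 7 without HS replicate 1. For this comparison, leaving out HS samples was chosen after seeing the data. Genes apart from both NS and HS numbered 0 to 12 with a single sample left out. The DEGs of HS against NS ranged from 382 (without NS replicate 1) to 653 with a single sample left out, with 419 and 440 without HS replicates 1 and 2, and were 1060 after rescaling to total reads. A replicate block in the fit left 0 DEGs against NS (1851 genes at an unadjusted p under 0.05) and 0 apart from both, and the limma adjusted p of PLA2G7 was 0.0522. Same-numbered injected and NS samples deviated from their group means with correlations across genes of 0.198, 0.0943 and 0.0539, each above that sample's correlations with the other NS samples, and injected and HS samples with -0.116, 0.00687 and -0.105. Nothing in the labels pairs them, so the numbers were not taken as pairs. Of 54 genes named by rule, 44 kept their direction and side of the threshold in all settings run. CCL19 reversed from -0.41 to 0.52 without NS replicate 2 and 0.14 without 5-Fu injection replicate 2, within a range of -1.52 to 0.52 over samples left out, and the cause was not tested. Depth limits genes near 1 FPKM most, where 1 FPKM on a gene of 1 kb is at least 10.3 reads.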
